A study of Homo sapiens with 12 samples.

Results

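The genes described here are 54 components of the DNA replication machinery, measured by polyA RNA sequencing in HCT116 cells. They were chosen by symbol, from general knowledge of replication and with earlier results of these data known, out of 23195 genes that the authors' deposited tables list for both Nutlin-3a comparisons. Of the 54, 15 license origins (the origin recognition complex, the loaders CDC6 and CDT1, the CDT1 inhibitor geminin and the MCM helicase), 10 fire origins and 29 work at the fork. All 54 were listed in all 4 tables, and 53 had a mean normalized count of at least 100, the exception being POLD4.

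HCT116 is a human colorectal carcinoma line with intact p53, and it is the source of all 12 libraries. They received either siControl, a control siRNA, or siRFX7, an siRNA against the transcription factor RFX7, and 10 µM Nutlin-3a or its solvent DMSO for 24 h. Each of the 4 combinations of siRNA and treatment had 3 libraries. The labels name 1 cell line and do not give the siRNA sequences, how many siRNAs were used, or whether replicates were separate cultures, so the p-values measure the spread between these libraries, which may be technical.

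A replication origin is licensed when the origin recognition complex, with CDC6 and CDT1, loads the MCM helicase onto DNA, and geminin prevents a repeat by binding CDT1. The kinase CDC7 with DBF4, together with Treslin, TOPBP1, CDC45, the GINS proteins and MCM10, turns loaded helicases into moving forks. There, polymerase alpha-primase starts each strand, polymerases delta and epsilon extend it on the PCNA clamp loaded by RFC, and FEN1 and LIG1 join the lagging strand. Many of these genes are E2F targets transcribed in late G1 and S phase. Nutlin-3a blocks MDM2 from binding p53, and active p53 induces the cell cycle inhibitor p21 (CDKN1A), which keeps E2F targets off. PCNA is known both as such an S-phase gene and as a gene that p53 can activate directly.

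Promoter letters are shown first because PCNA carries motifs of both kinds, as do CDC7, MCM6, RFC3 and TIPIN. RefSeq promoter windows (GRCh38.p14, 250 bases before to 50 after a start) matched 48 of the 54 members, with 63 windows in all. The letters searched on both strands were TTTCCCGC, TTTGGCGC, TTTCGCGC and TTTGCCGC for E2F, TTTGAA and TTCGAA for the cell cycle homology region (CHR), CCAAT for the CCAAT box, GTTGCC for part of the X-box, and the p53 half-site by its usual consensus. TTTGGCGC and TTTCGCGC can overlap when read on opposite strands. The 250 bases upstream of the outer PCNA start, chr20:5126623-5126872 on the minus strand, hold 1 E2F match (GCGGGAAA, from -59) and 3 CCAAT matches (from -152, -79 and -25), shown in capitals. All but the last 4 of these bases lie outside the transcripts of GENCODE v29.

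PCNA upstream: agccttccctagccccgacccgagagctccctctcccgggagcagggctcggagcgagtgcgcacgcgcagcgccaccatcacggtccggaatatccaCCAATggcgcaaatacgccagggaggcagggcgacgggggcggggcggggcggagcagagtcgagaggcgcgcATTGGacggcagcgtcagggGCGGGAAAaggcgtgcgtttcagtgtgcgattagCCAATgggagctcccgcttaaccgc

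The inner PCNA start lies in the gene and has no E2F match in its window. Its window holds 1 p53 half-site match, from -226, in an intron of the longer transcripts, with the matched letters in capitals (chr20:5120165-5120194, minus strand). Beside it are 30-base stretches with E2F letters in capitals from members that differ in their response below: MCM6 (chr2:135876512-135876541, minus strand) and MCM3 (chr6:52284899-52284928, minus strand), both upstream of every GENCODE transcript of their gene, GMNN (chr6:24775321-24775350, plus strand, intronic to a longer transcript) and MCM7 (chr7:100101398-100101427, minus strand, exonic in a longer transcript).
PCNA inner start: acatatgcccGGACTTGTTCtgcggccggg
MCM6: tggtcaggTTTGGCGCGAAAtctccagctc
MCM3: ccggatggtacgTTTCCCGCcaccgcgggg
GMNN: ggctgggtcggtTTTGGCGCgctctcactt
MCM7: ccggtcacgtggggggcgacgTTTCGCGCc

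E2F letters were found in 23 of the 63 member windows (36.5%), against 3.31% of all 35116 windows and 4.57% of the windows of genes in both Nutlin-3a tables. The share was 47.1% of 17 licensing windows, 38.5% of 13 firing windows and 30.3% of 33 fork windows. CCAAT letters were in 34 of the 63 member windows (54%). Their share was 34.6% of all windows and 34.1% of the windows of genes in both Nutlin-3a tables. The p53 half-site was in 12.7% of member windows, against 6.63% and 5.94% in the same order, and CHR letters in 4.76% against 16.4% and 12%. The X-box letters, part of the longer site that RFX proteins are known to bind, were in 11.1% against 12.2% and 12.7%. The MCM6 window holds p53 half-site letters too, from -243, outside the stretch shown. A match is a description of letters and not of a bound site.

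As a check of the labels, RFX7 itself stood at 19.6% of the siControl level in DMSO and 22.6% in Nutlin-3a, a log2 fold change of -2.35 (SE 0.096) and -2.14 (SE 0.089) in the authors' deposited tables. The mean depth was 26717456 to 27297719 counts per library across the groups, and the depth of single libraries is unknown. Of the epithelial markers, EPCAM, KRT8, KRT18, KRT19 and CDH1 were present at mean normalized counts of 2585 to 80338 and VIL1 at 8. PTPRC, CD3E and PECAM1 had no row in the tables used here, and COL1A1, a fibroblast marker, had a mean of 441. By the authors' deposited tables, COL1A1 was higher with siRFX7, at 0.36 (adjusted p = 0.00655) for DMSO and 0.52 (adjusted p = 6.71e-05) for Nutlin-3a. KRT18 was lower for both, at -0.41 and -0.45, all on the log2 scale. The 6 epithelial markers did not share 1 direction. For DMSO, 2 were called higher with siRFX7 and 1 lower (adjusted p below 0.05). For Nutlin-3a, 2 were called higher and 3 lower. The part of these markers in the siRFX7 results was not tested.

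With Nutlin-3a, the replication genes fell together. In siControl cells 52 of the 54 members were lower (adjusted p below 0.05 in the authors' deposited table, DESeq2), 1 was higher (POLD4) and 1 was not called (ORC4). Over all 23195 genes tested, 21.2% were lower and 22% were higher. The median log2 fold change of the members was -2.60, which leaves 16.5% of the DMSO level, against 0.02 for all genes. Of the members, 47 fell by more than 1 on the log2 scale, 35 by more than 2, 19 by more than 3 and 8 by more than 4. These 8 were ORC1, ORC6, CDC6, MCM10, CDC45, GINS2, TICRR and CLSPN. Of all 23195 genes, 1513 were called lower with a minimum absolute log2 fold change of 1, and counts at deeper falls were not computed. In bulk RNA, fewer cells in S phase and less RNA per cell cannot be told apart.

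The same comparison in siRFX7 cells, which uses none of the same libraries, gave 51 members lower, 2 higher (POLD4 and ORC4) and 1 not called (PCNA), by the authors' deposited table. There 19.7% of all genes were lower and 21.7% were higher, and the members' median was -2.38 against -0.02 for all genes. All 51 members that fell in siRFX7 also fell in siControl, where 52 of the 54 were lower. The share of all genes lower in both was not computed. Across the 54 genes the log2 fold changes of both comparisons had a Pearson correlation of 0.973, given as a description, since the genes share libraries and one model fit.

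**Figure D1:**
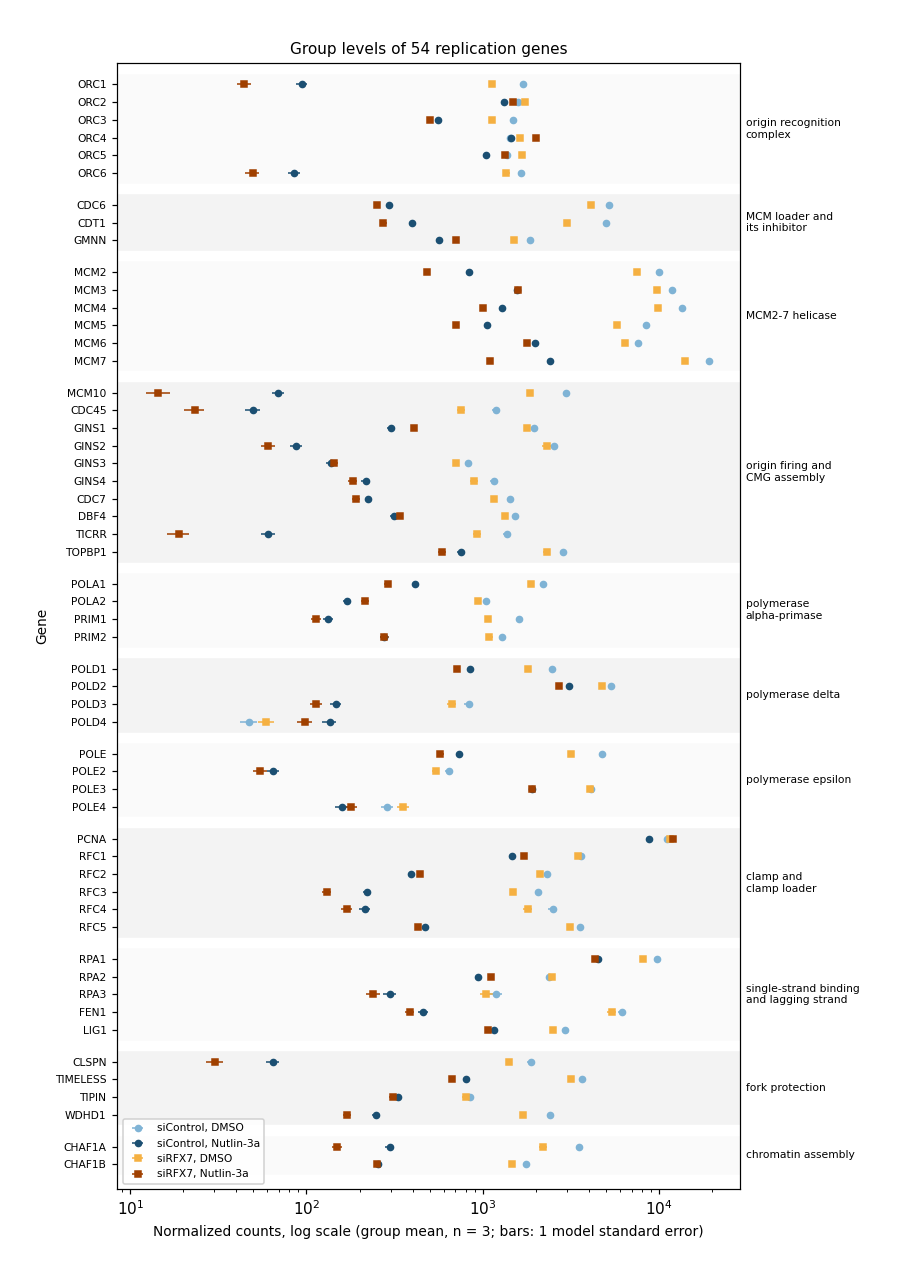
Mean normalized count per library (log axis) of each of the 54 members in the 4 groups, grouped by role, with bars of 1 model SE. Nutlin-3a groups lie to the left of DMSO groups for nearly every gene, while PCNA stays between 8731 and 12008 in all 4 and POLD4 lies to the right.

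Shares were taken of the summed normalized counts of the 19393 genes listed in all 4 comparisons. All members together made up 0.727% in siControl DMSO and 0.168% in siControl Nutlin-3a. In siRFX7 they made up 0.613% and 0.171%. The 6 MCM helicase genes went from 0.262% to 0.0333% in siControl and from 0.206% to 0.0247% in siRFX7.

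Licensing genes had a median log2 fold change of -2.99 in siControl, with 14 of 15 lower. Firing genes had a median of -2.69, with 10 of 10 lower, and fork genes a median of -2.40, with 28 of 29 lower and 1 higher. In siRFX7 the medians were -3.04, -2.45 and -2.23. The interquartile ranges overlapped in siControl, at -3.62 to -1.57 for licensing, -4.56 to -2.45 for firing and -3.23 to -1.33 for fork genes. The 23 members with E2F letters in a window had a median of -2.68 in siControl and the 25 with a window but no match a median of -2.57. For the p53 half-site, the 7 members with a match, PCNA among them, had a median of -2.23 and the 41 without -2.69.

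**Figure D2:**
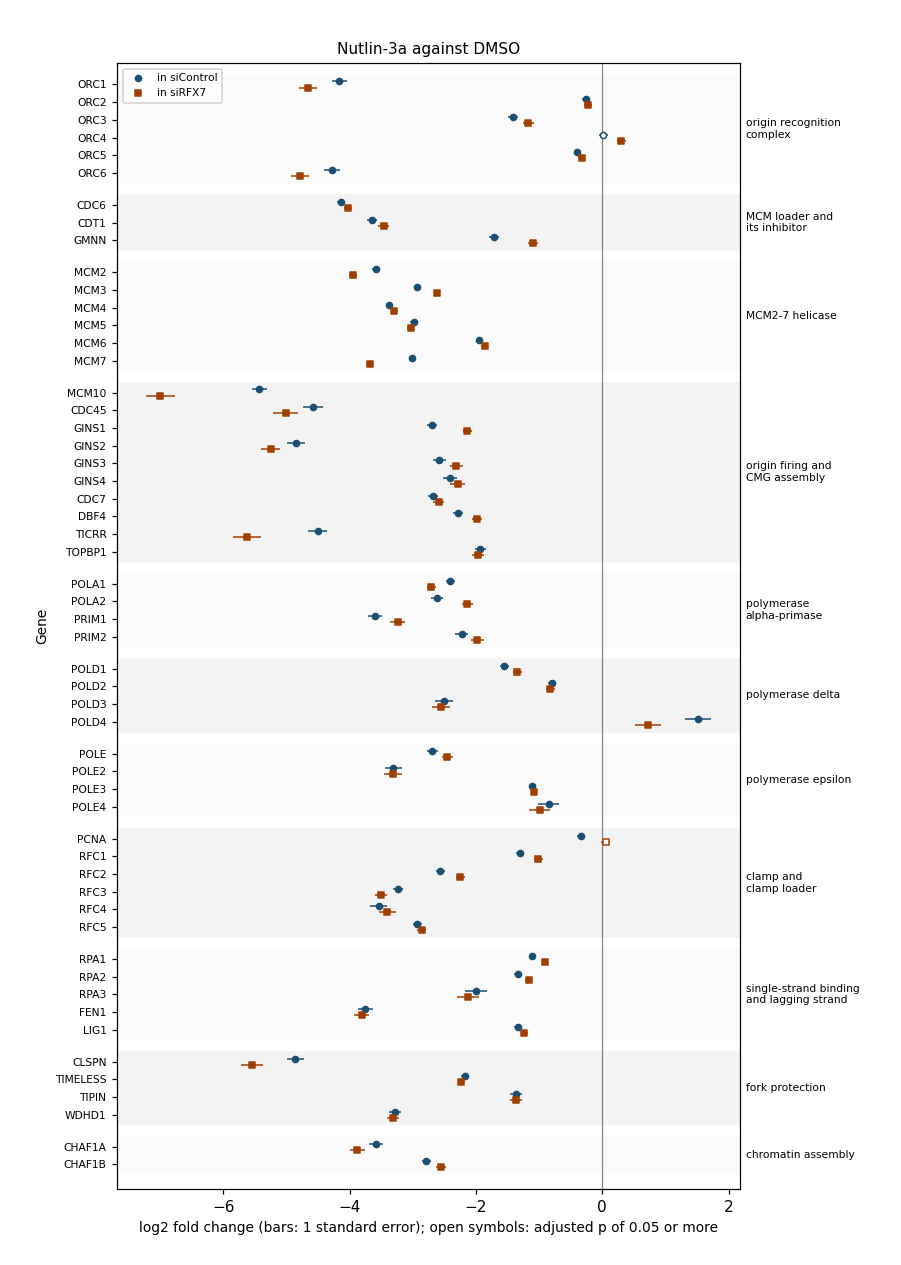
Log2 fold change of each member with Nutlin-3a against DMSO, in siControl and in siRFX7, with bars of 1 SE, from the authors' deposited tables. Open symbols had an adjusted p of 0.05 or more: ORC4 in siControl and PCNA in siRFX7.

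The origin recognition complex subunits fell by very different amounts. ORC1, its largest subunit, had group means of 1686 ± 65.5 (DMSO) and 94.1 ± 6.59 (Nutlin-3a) in siControl, and 1124 ± 44.8 (DMSO) and 44.4 ± 4.18 (Nutlin-3a) in siRFX7 (mean normalized counts ± model SE, n = 3 libraries each, as for all group means below). Nutlin-3a left 5.58% of ORC1 in siControl and 3.95% in siRFX7, with log2 fold changes of -4.16 (SE 0.12) and -4.66 (SE 0.15) in the authors' deposited tables. ORC6, the smallest subunit, had -4.28 (SE 0.12) and -4.78 (SE 0.15). ORC3 fell by less, -1.41 and -1.17. ORC2 and ORC5 fell least among the subunits that were called in siControl, at -0.26 and -0.39 in the authors' deposited table.

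ORC4 was the only licensing gene that did not fall in siControl. Its locus overlaps ACVR2A and MBD5 on the other strand, and the strand setting of the counting is not given in the sources used here. Its group means were 1436 ± 50.3 (DMSO) and 1450 ± 50.8 (Nutlin-3a) in siControl, and 1637 ± 56.4 (DMSO) and 2018 ± 68.7 (Nutlin-3a) in siRFX7. The authors' deposited tables gave 0.01 (SE 0.071) in siControl (adjusted p = 0.899) and 0.30 (SE 0.07) in siRFX7 (adjusted p = 6.68e-05). Per kilobase of mRNA (the GENCODE v29 transcript with the longest coding sequence), the ratio of the most to the least abundant ORC transcript rose from 4.75 to 17.9 in siControl and from 3.50 to 48.5 in siRFX7. In both Nutlin-3a groups ORC1 was the lowest and ORC5 the highest.

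CDC6, the ATPase that loads the helicase, had group means of 5174 ± 120 (DMSO) and 295 ± 11.9 (Nutlin-3a) in siControl, and 4087 ± 96.1 (DMSO) and 251 ± 10.7 (Nutlin-3a) in siRFX7. Nutlin-3a left 5.7% (1 SE either side, 5.44 to 5.97%) in siControl and 6.14% in siRFX7. CDT1, which brings the helicase to origins, went from 4991 ± 168 to 397 ± 17.4 in siControl and from 3007 ± 103 to 273 ± 13.1 in siRFX7. Geminin (GMNN), the inhibitor of CDT1, fell less, to 30.3% and 46.8% of the DMSO level. Per kilobase, CDT1 and GMNN were nearly equal in siControl DMSO, with a ratio of 1.04, and the ratio was 0.274 in siControl Nutlin-3a. In siRFX7 the ratio went from 0.778 to 0.151. The difference of their log2 fold changes was -1.93 (SE 0.11) in siControl and -2.37 (SE 0.11) in siRFX7.

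The helicase subunits MCM2 to MCM7 act as a ring with 1 copy of each, and all 6 fell in both siRNA backgrounds. In siControl the log2 fold changes in the authors' deposited table ran from -3.59 for MCM2 to -1.95 for MCM6, and in siRFX7 from -3.94 for MCM2 to -1.86 for MCM6. MCM7 had group means of 19323 ± 482 (DMSO) and 2404 ± 65.6 (Nutlin-3a) in siControl, and 14094 ± 353 (DMSO) and 1096 ± 33.1 (Nutlin-3a) in siRFX7. MCM6 kept the most, with 7622 ± 173 normalized counts in siControl DMSO and 1969 ± 49.9 in siControl Nutlin-3a, or 25.8%. MCM2 went from 10008 ± 233 to 832 ± 25.2, or 8.32%. Per kilobase, the most abundant of the 6 exceeded the least abundant 3.20-fold in siControl DMSO and 3.54-fold in siControl Nutlin-3a. The highest was MCM7 in 3 groups and MCM3 in siRFX7 Nutlin-3a.

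Among the firing genes, MCM10, which activates the loaded helicase, had the deepest fall of any member in both backgrounds. Its group means were 2977 ± 98.4 (DMSO) and 69.1 ± 5.3 (Nutlin-3a) in siControl, and 1855 ± 63 (DMSO) and 14.5 ± 2.25 (Nutlin-3a) in siRFX7. That left 2.32% (1 SE either side, 2.14 to 2.52%) in siControl and 0.78% (1 SE either side, 0.665 to 0.915%) in siRFX7, with log2 fold changes of -5.43 (SE 0.12) and -7.00 (SE 0.23) in the authors' deposited tables. TICRR (Treslin), which helps load CDC45, went from 1378 ± 73.1 to 60.6 ± 5.48 in siControl and from 927 ± 50.1 to 18.8 ± 2.69 in siRFX7. CDC45 itself, a subunit of the active helicase, kept 4.17% and 3.1%.

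The 4 GINS subunits form 1 complex but fell by different amounts. GINS2 kept 3.46% in siControl, while GINS1 kept 15.5%, GINS3 16.7% and GINS4 18.8%. The log2 fold change of GINS2 minus that of GINS1 was -2.16 (SE 0.16) in siControl and -3.11 (SE 0.17) in siRFX7, and their per-kilobase ratio went from 1.58 to 0.354 and from 1.56 to 0.181. The kinase CDC7 kept 15.6% and its partner DBF4 20.5%. TOPBP1, a scaffold that also activates the checkpoint kinase ATR, fell least of the 10, to 26.2% in siControl and 25.6% in siRFX7.

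At the fork, the polymerases showed their widest spread in delta and epsilon. All 4 subunits of polymerase alpha-primase fell, from -3.60 for the primase PRIM1 to -2.23 for PRIM2 in siControl (authors' deposited table). POLD1, the catalytic subunit of delta, kept 34.2%, and its partner POLD2 kept 57.7%, while POLD3 kept 17.6%. POLE, the catalytic subunit of epsilon, kept 15.5% and POLE2 10.1%. The histone-fold subunits POLE3 and POLE4 kept 46.2% and 55.7%.

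POLD4, the smallest delta subunit, rose. Its group means were 47.1 ± 5.31 (DMSO) and 135 ± 12.2 (Nutlin-3a) in siControl, and 59.3 ± 6.21 (DMSO) and 98.3 ± 9.34 (Nutlin-3a) in siRFX7. The authors' deposited tables gave 1.52 (SE 0.21) in siControl (adjusted p = 2.09e-12) and 0.73 (SE 0.2) in siRFX7 (adjusted p = 0.00123). POLD4 (chr11:67350777-67356972, minus strand) overlaps RAD9A on the other strand, and the handling of strand in the counting is not given in the sources used here. Its reads and those of RAD9A may therefore not be separable.

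The clamp loader split as well. RFC1, its large subunit, kept 40.6% in siControl, against 16.9% for RFC2, 10.7% for RFC3, 8.58% for RFC4 and 13.1% for RFC5. The single-strand binding subunits RPA1, RPA2 and RPA3 kept 46.4%, 39.7% and 25%. Of the lagging strand enzymes, the flap nuclease FEN1 kept 7.42%, from 6183 ± 339 to 459 ± 27.8, and the ligase LIG1 39.5%.

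Claspin (CLSPN), the checkpoint adaptor at the fork, had group means of 1866 ± 78.4 (DMSO) and 64.4 ± 5.32 (Nutlin-3a) in siControl, and 1409 ± 59.9 (DMSO) and 30.3 ± 3.41 (Nutlin-3a) in siRFX7. Its log2 fold changes of -4.86 (SE 0.13) and -5.54 (SE 0.17) in the authors' deposited tables were the deepest of the fork genes. TIMELESS and TIPIN, which bind each other at the fork, kept 22.1% and 38.7% in siControl, and WDHD1, which links the helicase to polymerase alpha, kept 10.3%. The chromatin assembly subunits CHAF1A and CHAF1B kept 8.37% and 14.5%.

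A further 30 replication factors outside the 54 were examined as a list. In siControl 26 of the 30 were lower and none was higher by the authors' deposited table, with a median of -1.79, and 26 were lower and 1 was higher in siRFX7, with a median of -1.62. Of all genes, 21.2% were lower and 22% higher in siControl, and 19.7% and 21.7% in siRFX7. DTL, the adaptor that marks CDT1 for destruction on PCNA, had a log2 fold change of -5.05 in siControl, and ASF1B, a histone chaperone, -5.00. Those not called in siControl were TOP1 (-0.02), ASF1A (-0.10), LRWD1 (-0.10) and CINP (0.07) in the same table, and TOP1 was the one that rose in siRFX7, at 0.27.

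Knockdown of RFX7 gave small changes in most members. In DMSO, 38 of the 54 members were lower in siRFX7 than in siControl and 2 were higher, ORC4 and ORC5 (authors' deposited table, adjusted p below 0.05). Of all 20026 genes tested, 15.5% were lower and 13.5% higher. The members' median was -0.26 against 0.00 for all genes, and the lowest was CDT1, which had 60.2% of the siControl level. No member fell by more than 1 on the log2 scale. With a minimum absolute log2 fold change of 0.58, 7 of the 54 members were called lower, beside 503 of all 20026 genes.

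In Nutlin-3a, 23 members were lower in siRFX7 and 9 were higher, while 13.6% of all 19393 genes tested were lower and 15% higher, by the authors' deposited table. The members' median was -0.24 against 0.00 for all genes. The range was wider than in DMSO, from -2.26 (SE 0.25) for MCM10 to 0.48 (SE 0.07) for ORC4. Both siRFX7 comparisons use different libraries within the same model fit, and the share of all genes lower in both was not computed. The genes lower in both were 22: ORC1, ORC6, CDC6, CDT1, MCM2, MCM4, MCM5, MCM6, MCM7, MCM10, CDC45, TICRR, TOPBP1, POLA1, POLD1, POLD2, POLE, RFC3, CLSPN, TIMELESS, WDHD1 and CHAF1A.

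**Figure D3:**
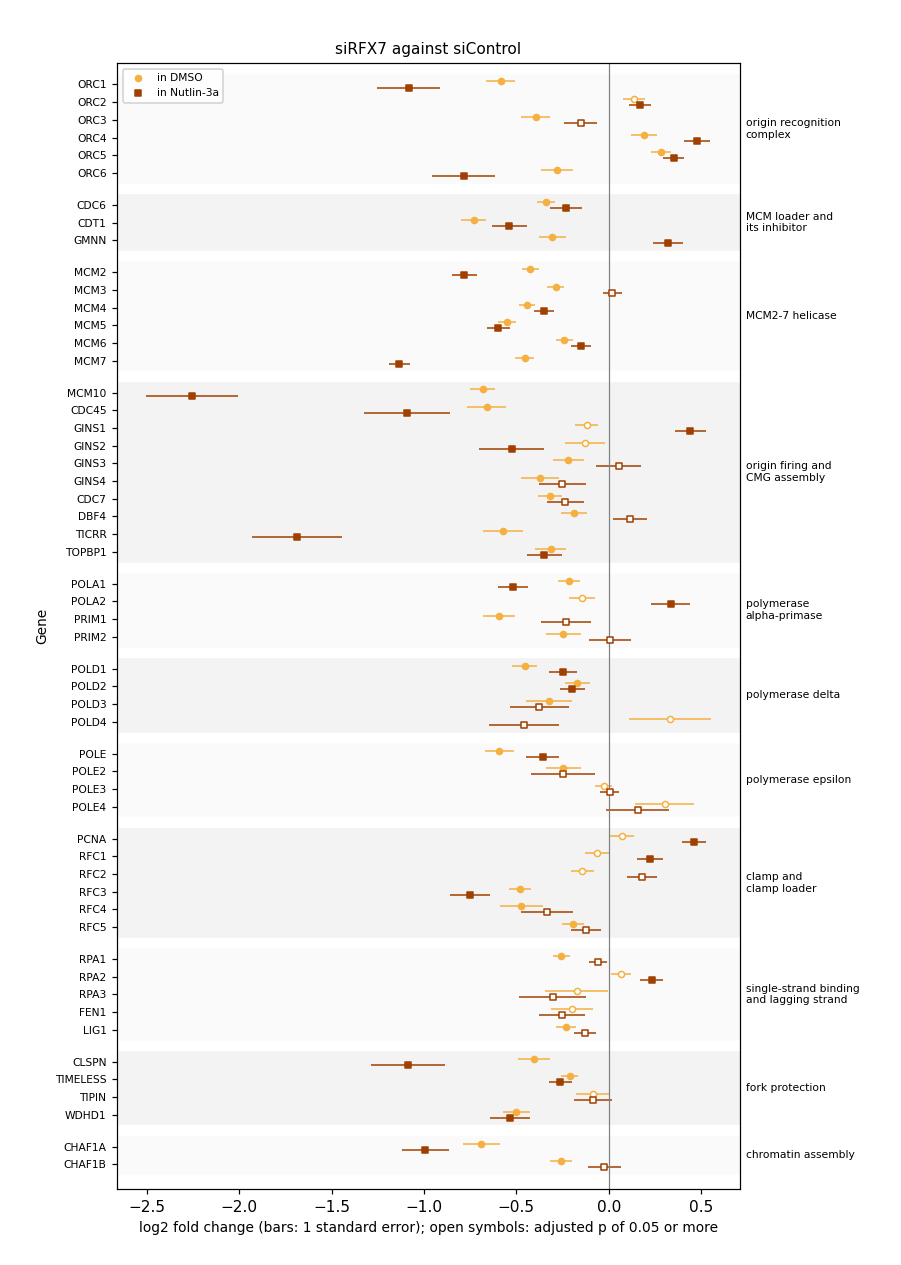
Log2 fold change of each member in siRFX7 against siControl, in DMSO and in Nutlin-3a, with bars of 1 SE, from the authors' deposited tables. DMSO values lie between -0.73 and 0.33, and Nutlin-3a values between -2.26 and 0.48.

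By block, 12 of 15 licensing genes, 8 of 10 firing genes and 18 of 29 fork genes were lower in DMSO, with medians of -0.34, -0.32 and -0.22 (authors' deposited table). CDT1 had -0.73 (SE 0.069) (adjusted p = 3.57e-24), CHAF1A -0.69 (SE 0.1) and MCM10 -0.68 (SE 0.068) in that table. All 6 MCM helicase genes were lower, from -0.55 for MCM5 to -0.24 for MCM6. PCNA, the clamp loader subunits RFC1 and RFC2, the GINS subunits GINS1 and GINS2, the polymerase alpha subunit POLA2 and FEN1 were among the 14 not called.

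In Nutlin-3a, 9 licensing, 5 firing and 9 fork genes were lower and 4, 1 and 4 were higher, with medians of -0.23, -0.30 and -0.23. The members higher in siRFX7 there were ORC2, ORC4, ORC5, GMNN, GINS1, POLA2, PCNA, RFC1 and RPA2, with log2 fold changes of 0.17 to 0.48 in the authors' deposited table. Only GMNN passed the test in opposite directions, at -0.31 (SE 0.073) in DMSO (adjusted p = 0.000227) and 0.32 (SE 0.082) in Nutlin-3a (adjusted p = 0.000675). MCM10 had 20.9% of the siControl level in Nutlin-3a, TICRR 31.1%, MCM7 45.6%, CDC45 47%, CLSPN 47.1% and ORC1 47.2%.

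Of the ORC subunits, ORC4 and ORC5 were higher with siRFX7 in both treatments, by the authors' deposited tables. The log2 fold changes were 0.19 (SE 0.071) (DMSO) and 0.48 (SE 0.07) (Nutlin-3a) for ORC4 and 0.28 (SE 0.055) and 0.35 (SE 0.057) for ORC5. ORC1 and ORC6 were lower in both treatments, at -0.59 (DMSO) and -1.08 (Nutlin-3a) for ORC1 and -0.28 and -0.79 for ORC6 in the same tables.

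Of the 38 members lower in DMSO, 15 were not called in Nutlin-3a: ORC3, MCM3, GINS3, GINS4, CDC7, DBF4, PRIM1, PRIM2, POLD3, POLE2, RFC4, RFC5, RPA1, LIG1 and CHAF1B. The share of all genes lower in DMSO that were not called in Nutlin-3a was not computed, so this count is not particular to the members. By the authors' deposited tables, MCM3 had -0.29 (SE 0.046) (DMSO) and 0.02 (SE 0.054) (Nutlin-3a), and PRIM1 -0.59 (SE 0.087) and -0.23 (SE 0.13). Only MCM3 of these 15 passed the test of the difference described next. GINS2 was lower in Nutlin-3a only by its own tests, at -0.53 (SE 0.18) against -0.13 (SE 0.11) in DMSO, and its difference was not called (z test, adjusted p = 0.332). The histone-fold subunits POLE3 and POLE4, RFC2, RPA3, FEN1, TIPIN and POLD4 were called in neither treatment.

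Whether the response to Nutlin-3a differed between siRNAs was tested as the difference of both log2 fold changes, siRFX7 minus siControl, with a z test and Benjamini-Hochberg adjustment over 23195 genes. Of the 54 members 12 differed, 5 of them lower and 7 higher, where 2.92% of all genes were lower and 3.28% higher. The lower ones, whose fall was deeper in siRFX7, were MCM10, TICRR, CLSPN, MCM7 and MCM2. The higher ones, which fell less in siRFX7 or, for PCNA, were not called there, were RFC1, MCM3, RFC2, PCNA, POLA2, GINS1 and GMNN. RFC1 and RFC2 were no longer called when the groups were rescaled to equal totals, and CLSPN, RFC1 and RFC2 were not called at an adjusted p below 0.01.

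MCM10 had the largest difference, -1.57 (SE 0.26), with a 95% interval of -2.08 to -1.06 (z test, adjusted p = 1.51e-07). MCM7 had -0.68 (SE 0.078), interval -0.83 to -0.52 and adjusted p = 1.07e-15. MCM7 (chr7:100092728-100101940, minus strand) overlaps AP4M1 on the other strand, and the strand setting is not given in the sources used here. MCM3, a neighbour of MCM7 in the same ring, had 0.31 (SE 0.071) (z test, adjusted p = 0.000674). The difference between MCM7 and MCM3 in log2 fold change was -0.08 (SE 0.073) in siControl and -1.06 (SE 0.075) in siRFX7. Of the other helicase subunits, MCM2 had -0.36 and was called, and MCM4, MCM5 and MCM6 had 0.09, -0.05 and 0.09 and were not.

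GMNN had the highest difference, 0.63 (SE 0.11), interval 0.41 to 0.84, adjusted p = 1.14e-06 by the z test. Its group means were 1860 ± 66.2 (DMSO) and 564 ± 23.2 (Nutlin-3a) in siControl, and 1505 ± 54.2 (DMSO) and 705 ± 27.9 (Nutlin-3a) in siRFX7. GINS1 followed with 0.56 (SE 0.11) and POLA2 with 0.48 (SE 0.13). For the 42 members not called, a difference was not shown to be absent. POLA1, the catalytic subunit of polymerase alpha, had -0.30 (SE 0.1) (adjusted p = 0.0519, z test) and was called under 4 of the 5 alternatives tried. The interval for FEN1 ran from -0.38 to 0.27 and that for ORC1 from -0.86 to -0.13. POLD4, which rose in both, had -0.79 (SE 0.29) with an interval of -1.36 to -0.22 and an adjusted p of 0.0861.

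**Figure D4:**
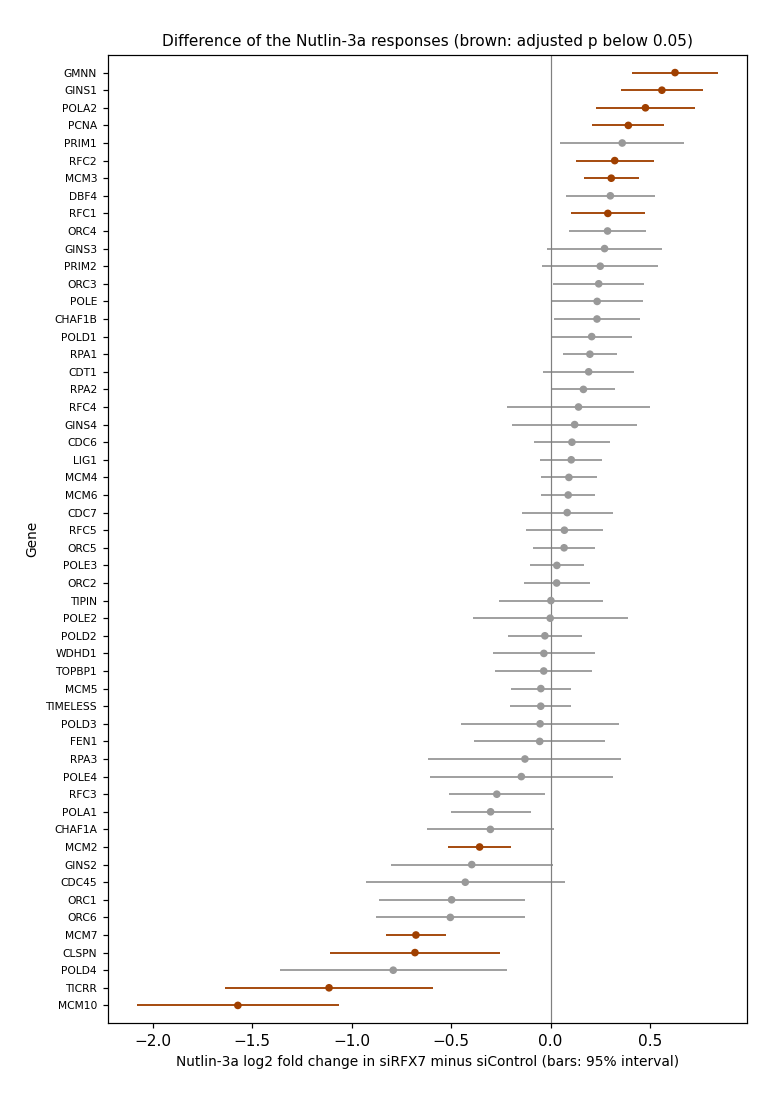
Difference of the Nutlin-3a log2 fold change between siRFX7 and siControl for each of the 54 members, sorted, with 95% intervals from the z test. Brown points had an adjusted p below 0.05, and run from -1.57 for MCM10 to 0.63 for GMNN.

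The difference varied with the depth of the fall. Members were placed in bands by the mean of both Nutlin-3a log2 fold changes. Band and difference are therefore made of the same values, and are not independent. Those values ran from -5.43 to 1.52 in siControl and from -7.00 to 0.73 in siRFX7. In the 8 with a mean below -4 the median difference was -0.50, and 3 were called lower and none higher. It was -0.04 in the 12 between -4 and -3, with 2 called lower, 0.23 in the 16 between -3 and -2, with 4 called higher, and 0.17 in the 11 between -2 and -1, with 2 called higher. The 7 members above -1 had a median of 0.03, with PCNA called higher. Across the 54 genes, the mean response and the difference had a Pearson correlation of 0.516 and a Spearman correlation of 0.434, as a description over genes that share libraries and fit.

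PCNA fell less with Nutlin-3a than most members: ordered from the lowest log2 fold change it was number 51 of 54 in siControl and 52 in siRFX7. Its gene (ENSG00000132646) lies at chr20:5114953-5126626 on the minus strand. The group means were 11040 ± 354 (DMSO) and 8731 ± 281 (Nutlin-3a) in siControl, and 11574 ± 371 (DMSO) and 12008 ± 385 (Nutlin-3a) in siRFX7. The siControl Nutlin-3a group was the lowest and the siRFX7 Nutlin-3a group the highest, and both DMSO groups lay between. In siControl its log2 fold change was -0.34 (SE 0.066) in the authors' deposited table, adjusted p = 1.15e-06, which left 79.1% (1 SE either side, 75.6 to 82.8%). In siRFX7 it was 0.05 (SE 0.065) there, adjusted p = 0.574, or 104% (1 SE either side, 99.2 to 109%) of the DMSO level. The difference between the siRNAs was 0.39 (SE 0.093), interval 0.21 to 0.57, z test adjusted p = 0.001.

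Against siControl, siRFX7 cells had 105% of the PCNA level in DMSO (log2 fold change 0.07 (SE 0.065), adjusted p = 0.489, authors' deposited table) and 138% in Nutlin-3a (0.46 (SE 0.066), adjusted p = 6.58e-11). Of the members' summed normalized counts, PCNA held 5.63% with DMSO and 19% with Nutlin-3a in siControl, and 7.29% and 26% in siRFX7. Per kilobase it was the most abundant member in all 4 groups. Its ratio per kilobase to FEN1, a nuclease that PCNA holds at the fork, went from 3.02 to 32.2 in siControl and from 3.63 to 52.7 in siRFX7. The same ratio to RFC1, a subunit of its loader, went from 11.0 to 21.4 in siControl and stood at 25.2 in siRFX7 with Nutlin-3a.

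**Figure D5:**
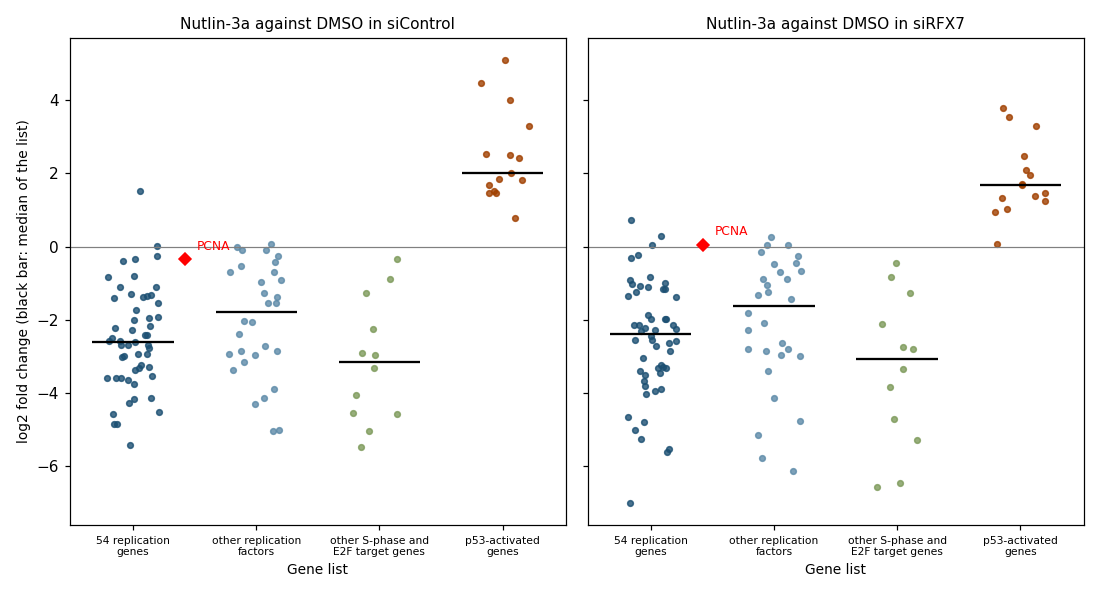
Log2 fold change with Nutlin-3a in siControl (left) and siRFX7 (right) for genes of 4 lists, 1 point a gene, with a bar at each list's median, from the authors' deposited tables. PCNA, at -0.34 and 0.05, lies above most of the 54 members, which include it, and below the p53-activated genes.

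PCNA was set beside genes of each kind, from lists written with earlier results of these data known. The 15 p53-activated genes, among them CDKN1A and MDM2, were all higher with Nutlin-3a in siControl, at 0.79 (DDB2) to 5.10 (TP53I3) and a median of 2.01 in the authors' deposited table. In siRFX7, 14 of 15 were higher with a median of 1.69. Of all genes, 22% were higher and 21.2% lower in siControl, and 21.7% and 19.7% in siRFX7. The 12 other S-phase and E2F target genes were all lower in both, with medians of -3.14 and -3.07, from -5.48 for CCNE2 to -0.34 for CCNE1 in siControl. PCNA lay level with CCNE1, the highest of the S-phase genes, in siControl, and above all 12 in siRFX7, where CCNE1 was again their highest at -0.44. It lay below all 15 p53-activated genes in both, although the lowest of them in siRFX7, DDB2 at 0.06 (SE 0.058), was within its SE of PCNA.

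The same lists can be read against the test of the difference between siRNAs. Of the 15 p53-activated genes 13 were called lower by the z test and none higher, with a median of -0.56, whereas PCNA was called higher. Among all genes, 2.92% were called lower and 3.28% higher. CDKN1A had -0.93 (SE 0.13) and MDM2 -0.69 (SE 0.089). Of the 12 S-phase genes 2 were called lower, RRM2 (-1.43) and MYBL2 (-0.72), and none higher. In DMSO, 14 of the 15 p53-activated genes were higher in siRFX7 than in siControl, with a median of 0.69 in the authors' deposited table, while PCNA had 0.07. In Nutlin-3a, 6 of the 15 were higher, 3 lower and 6 not called, with a median of 0.15, while PCNA had 0.46. The shares of all genes were 13.5% higher and 15.5% lower in DMSO, and 15% and 13.6% in Nutlin-3a.

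Processed pseudogenes of 6 members were listed as well, and for these members the counting could have split reads between copies. PCNAP3 had -0.33 (SE 0.13) with Nutlin-3a in siControl and 0.10 (SE 0.12) in siRFX7 in the authors' deposited tables, close to the values of PCNA itself. DBF4P1 had -2.13 and -1.76, beside -2.29 and -1.99 for DBF4. The mean normalized count was 200.2 for PCNAP3 and 253.6 for DBF4P1.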

How the data were processed

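PolyA RNA from 12 HCT116 libraries in 4 groups of 3 was analysed from the authors' 4 deposited DESeq2 tables. Per the submitters' processing notes, the tools were bcl2fastq 2.20.0.422, Trimmomatic 0.39, cutadapt 2.10, FastQC 0.11.9, SAMtools 1.10, Picard, featureCounts 1.6.5 and DESeq2 1.20.0, with build hg38. The aligner, annotation and strand setting are not given in the sources used here. Per the file headers, the mean normalized count is a signal (counts over size factors), fold changes and standard errors are log2 values, and the statistic is a score. The p-values and adjusted p-values are those of the authors' deposited tables. No per-sample column was left out (0).

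The planned edgeR test needs counts, so the authors' adjusted p below 0.05 made the calls. The 4 tables closed to 1.27e-14 on the log2 scale with siRFX7 read over siControl. Group means, their SEs and the depth were recovered from the tables with the negative binomial error formula, which returned the deposited SEs to a median error of 0.00278 to 0.00359%. Model coefficients of variation of the members were 3.65 to 14.1%, and errors cover the spread between libraries under that model. The interaction was a two-sided z test, which treats SEs as known, adjusted by Benjamini-Hochberg over 23195 genes. Scripts were tested on simulated data (Python 3.11.15, numpy 2.4.6, pandas 2.3.3, scipy 1.17.1, matplotlib 3.10.9).

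All 54 members could be named. Group levels could be given for members called in the same direction in all comparisons of a kind, those against their block, PCNA, and the 5 largest changes in each direction per comparison. Outside the members, RFX7, MDM2, CDKN1A and genes of the lists (30 replication factors, 15 p53-activated, 12 S-phase, 6 epithelial, 4 other cell types) could be named. Members and lists were chosen with earlier results of these data known. Alternatives tried were a minimum fold, a stricter adjusted p, other scalings, a minimum mean count and other adjustment sets.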

Additional observations from a re-analysis of the deposited data

Results flagged for a closer look

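A total of 12 of the 54 members responded differently to Nutlin-3a in siRFX7 than in siControl by the z test of the difference, Benjamini-Hochberg adjusted over 23195 genes. Across all of these genes, 2.92% were called lower and 3.28% higher. The difference on the log2 scale, siRFX7 minus siControl, was -1.57 for MCM10, -1.11 for TICRR, -0.68 for CLSPN, -0.68 for MCM7 and -0.36 for MCM2. For these genes the fall was deeper in siRFX7. It was 0.29 for RFC1, 0.31 for MCM3, 0.32 for RFC2, 0.39 for PCNA, 0.48 for POLA2, 0.56 for GINS1 and 0.63 for GMNN. Of these, PCNA was called lower in siControl and was not called in siRFX7, and the others were called lower in both, by less in siRFX7. The differences of CLSPN, RFC1 and RFC2 were not called at an adjusted p below 0.01. Those of RFC1 and RFC2 were also lost on rescaling to equal group totals. No values per library were used, so the spread of single libraries behind these differences cannot be shown.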

How the results depend on the processing

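No called member result changed direction under any alternative. The sign of uncalled values near 0 turned in 7 cases, all under rescaling or recentring (ORC4, PCNA, POLE3, CHAF1B and TIPIN). Over members and alternatives, 1383 results stayed on the same side of the threshold, 164 were lost and 14 gained. With a minimum absolute log2 fold change of 0.58, the members called were 1 higher with Nutlin-3a in siRFX7, 7 lower and 0 higher with siRFX7 in DMSO, and 11 lower and 0 higher with siRFX7 in Nutlin-3a. With a minimum of 1 these were 0 higher, 0 lower and 0 higher, and 6 lower and 0 higher. Over all genes, the minimum of 0.58 left 2407 of 23195 higher with Nutlin-3a in siRFX7. With siRFX7 it left 503 lower and 1044 higher of 20026 in DMSO, and 681 lower and 801 higher of 19393 in Nutlin-3a. The minimum of 1 left 1179 higher, 127 lower and 490 higher, and 244 lower and 339 higher, in the same order. PCNA passed neither minimum, at -0.34 in siControl with Nutlin-3a and 0.46 with siRFX7 in Nutlin-3a. Without genes under a mean of 100, POLD4 dropped out, which left 0 members higher with Nutlin-3a in siControl cells and 1 in siRFX7 cells. At an adjusted p below 0.01, 1 member was higher with siRFX7 in DMSO. In the test of the difference that threshold left 4 members lower and 5 higher, without CLSPN, RFC1 and RFC2, and 417 of 677 genes lower and 446 of 760 higher.

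Rescaling to equal group totals moved log2 fold changes by at most 0.06. It ended the calls of GINS3, DBF4, PRIM2, POLD2, POLD3, POLE2 and RFC5 with siRFX7 in DMSO, of CDC6 and MCM6 with siRFX7 in Nutlin-3a, and of RFC1 and RFC2 in the test of the difference. It added ORC2 with siRFX7 in DMSO, RFC2 with siRFX7 in Nutlin-3a and the difference of POLA1 (-0.33). POLA1's difference was also called after recentring, with a mean of at least 100 and over genes in all 4 tables. The mean of at least 100 also added ORC2 and RFC2 with siRFX7 in DMSO, CDC7, POLD3 and RFC4 with siRFX7 in Nutlin-3a, and the differences of ORC4 and RPA1. The genes in all 4 tables also added RPA1. Weighting groups by depth moved group means by at most 1.65%. No paired analysis was possible because the deposited tables used here hold statistics per gene and no values per library, and for the same reason no replicate was left out.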

Other observations

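Among the 30 further replication factors, the log2 difference of the Nutlin-3a response between siRNAs (siRFX7 minus siControl) was called by the z test for 6. Over all 23195 genes, 2.92% were called lower and 3.28% higher. The difference was -1.13 for ASF1B (adjusted p = 6.7e-08), -0.84 for TOP2A, -0.73 for DTL and -0.62 for DSCC1, and 0.29 for TOP1 and 0.22 for MCMBP. ASF1B, a histone chaperone, had group means of 3545 ± 118 (DMSO) and 111 ± 7.07 (Nutlin-3a) in siControl, and 2736 ± 92 (DMSO) and 39 ± 3.83 (Nutlin-3a) in siRFX7 normalized counts. TOP2A, the topoisomerase that untangles sister chromatids, had 7468 ± 207 (DMSO) and 377 ± 15.2 (Nutlin-3a) in siControl, and 7264 ± 201 (DMSO) and 204 ± 9.93 (Nutlin-3a) in siRFX7. With siRFX7 in DMSO 17 of the 30 were lower and 1 was higher (CINP) in the authors' deposited table, and in Nutlin-3a 13 were lower and 2 were higher (CINP and RNASEH2B). Of all genes tested, 15.5% were lower and 13.5% higher in DMSO, and 13.6% and 15% in Nutlin-3a.

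Of the 54 members, 20 overlap a listed gene on the other strand, and the strand setting of the counting is not given in the sources used here. They are CHAF1A, CLSPN, DBF4, FEN1, GINS2, GINS3, GINS4, MCM2, MCM7, ORC2, ORC4, POLA1, POLD4, POLE3, PRIM1, RFC4, RFC5, RPA1, RPA3 and TICRR. Without strand, reads from these genes and their neighbours cannot be told apart where they overlap. The overlaps are of whole gene spans, introns included, so the exons need not overlap. On the same strand, CHAF1B overlaps MORC3, FEN1 FADS2, MCM7 MIR25, POLD3 AP001372.2, PRIM1 NACA and RFC3 AL161891.1, which a strand setting would not resolve.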
